A study of Mus musculus with 24 samples.

Results

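The genes of MHC class I antigen presentation were described in CD4+ T cells from mice with and without BAF180, called WT and BAF180-deficient. The genes were B2m, H2-D1, H2-K1, Tap1, Tap2, Tapbp, Psmb8, Psmb9 and Psmb10, and every probe carrying 1 of these 9 symbols in the deposited array table was taken. The rule found 12 of the 25697 probes of the table, and they represented 8 of the 9 genes. No probe carried the symbol H2-D1, which was therefore not analysed here. A total of 11 of the 12 probes had a detection p no higher than 0.02 on 1 or more of the arrays, as did 14246 probes of the whole table, and these were the ones tested.

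The study profiled 24 samples, 3 for each of 8 groups, and asked which genes depend on BAF180, a subunit of the PBAF chromatin remodeling complex encoded by Pbrm1. Deficient mice carried a conditional Pbrm1 allele deleted by CD4-Cre, so only cells that had expressed the CD4 promoter lost the gene, and the arrays labelled WT carried no such deletion. The labels gave the strain as Balb/c and the age as 4 to 6 weeks, whereas the methods described a B6-129 mixed background, so the class I alleles carried by the cells are uncertain. Resting Naive cells were CD4+CD62L+ cells of spleen and lymph nodes, purified to 95%. Stimulated Naive cells were the same cells after 24 h on plates coated with anti-CD3 (1 μg/ml) and anti-CD28 (2 μg/ml). Resting Th2 cells had been grown from Naive cells on such plates with IL-4 (10 ng/ml), anti-IFN-γ (10 μg/ml) and later IL-2 (100 U/ml). Stimulated Th2 cells were resting Th2 cells given PMA (50 ng/ml) and ionomycin (500 ng/ml) for 1.5 h. The stimulus and its duration therefore differed between Naive and Th2 cells. No value of Pbrm1 was analysed here, so the genotype labels were not checked on the arrays.

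MHC class I molecules display peptides from the inside of the cell to CD8+ T cells. The immunoproteasome cuts proteins into suitable peptides, the TAP transporter carries the peptides into the endoplasmic reticulum, and the loading complex fits them into a heavy chain paired with β2-microglobulin. These genes are widely expressed in lymphocytes, and interferon-γ is a well known inducer of the whole set, acting with the transactivator NLRC5, interferon regulatory factors and NF-κB.

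B2m encodes the light chain of every class I molecule and H2-K1 encodes 1 of the classical heavy chains. Their probes are shown because the results on the presented molecule rest on them. B2m had 2 detected probes, which read nearly the same site and overlap in 49 bases (capitals), so they are not independent measurements. The H2-K1 probe shared no run of 15 or more bases with a probe of another gene, but its match to the class I allele of these mice was not tested.
B2m, first probe: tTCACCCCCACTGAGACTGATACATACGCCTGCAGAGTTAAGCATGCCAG
B2m, second probe: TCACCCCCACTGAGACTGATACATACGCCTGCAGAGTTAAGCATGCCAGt
H2-K1: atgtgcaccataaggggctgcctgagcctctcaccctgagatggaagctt

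Promoters are shown next for the measured genes whose stretch held a motif match and for Tap1 and Psmb9, whose starts lie close together, from RefSeq on build GRCm38.p6, as the 250 bases before the transcription start. They were searched on both strands for an interferon regulatory factor motif (AANNGAAA, present in 21.3% of 32851 such stretches), a STAT motif (TTCNNNGAA, 7.0%) and a kappa B motif (GGGANTNCC, 3.4%). Capitals mark the matches, and no matches overlapped. The table held a stretch for 8 of the 9 genes, and none for Tap2. The H2-K1 stretch (chr17:34000348-34000597, minus strand) held 1 kappa B and 1 interferon regulatory factor match, the B2m stretch (chr2:122147437-122147686, plus strand) 1 interferon regulatory factor match, and the Psmb8 stretch (chr17:34197945-34198194, plus strand) 1 STAT match. Tap1 and Psmb9 are transcribed away from each other, and the stretch between their starts (chr17:34187331-34187555, plus strand) is only 225 bases long. It held no match, and neither did the stretches of Tapbp and Psmb10.
H2-K1 promoter: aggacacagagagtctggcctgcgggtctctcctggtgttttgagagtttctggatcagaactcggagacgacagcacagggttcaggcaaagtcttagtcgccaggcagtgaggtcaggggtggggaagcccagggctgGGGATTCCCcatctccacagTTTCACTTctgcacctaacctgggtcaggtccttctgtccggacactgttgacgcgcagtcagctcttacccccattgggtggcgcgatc
B2m promoter: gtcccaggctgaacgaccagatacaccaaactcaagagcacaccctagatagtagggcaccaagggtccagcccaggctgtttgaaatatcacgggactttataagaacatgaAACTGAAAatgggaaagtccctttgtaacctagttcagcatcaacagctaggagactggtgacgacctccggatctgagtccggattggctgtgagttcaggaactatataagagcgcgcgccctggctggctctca
Psmb8 promoter: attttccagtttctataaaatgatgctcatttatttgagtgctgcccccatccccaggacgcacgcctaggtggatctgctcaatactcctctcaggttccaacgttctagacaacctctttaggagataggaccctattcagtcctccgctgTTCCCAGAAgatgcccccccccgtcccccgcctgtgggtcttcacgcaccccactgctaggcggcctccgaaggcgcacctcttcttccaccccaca
Tap1 and Psmb9, stretch between the starts: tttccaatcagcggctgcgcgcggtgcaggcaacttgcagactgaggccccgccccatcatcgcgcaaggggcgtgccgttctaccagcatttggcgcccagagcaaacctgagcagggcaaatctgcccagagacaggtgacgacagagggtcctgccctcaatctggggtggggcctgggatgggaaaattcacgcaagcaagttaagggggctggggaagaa

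Each array detected 8047 to 10689 probes, and replicate arrays correlated at 0.949 to 0.989 across probes. All 7 CD4 T cell markers examined were detected on every array. Arrays of resting Naive cells stood apart in markers of other cells: the summed linear level of 4 class II genes (H2-Aa, H2-Ab1, H2-Eb1 and Cd74) was 14160 to 22550 there against 465 to 2039 in the other states. The summed level of 7 detected myeloid markers, among them Lyz2, was 1999 to 6780 against 136 to 222, and Itgam and Itgax were not detected anywhere. B cell markers summed to 450 to 1113 in resting Naive cells and to 118 to 492 elsewhere, with Ebf1 and Pax5 undetected. The part of these cells in the differences from resting Naive cells was not tested. In bulk samples a lower signal can mean less RNA per cell or fewer cells that make it, and these cannot be told apart.

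The values below are normalized log2 intensities of the brightest probe of each gene, in replicate order A, B and C, and each difference comes from 1 limma model of all 24 arrays with Benjamini-Hochberg adjustment over 14246 probes. Comparisons of cell states were called at an adjusted p below 0.05. Comparisons share groups of arrays, so their values are not independent. With 3 arrays against 3, an exact permutation test cannot go below a two-sided p of 0.1.

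By its normalized level Psmb9, which encodes the β1i subunit of the immunoproteasome, fell on stimulation of Th2 cells but not of Naive cells. The difference between the 2 stimulations passed the test. In WT cells its level was 8.49, 8.82 and 9.09 in resting Naive and 8.93, 9.30 and 9.70 in stimulated Naive cells. Resting Th2 cells gave 9.46, 9.5 and 9.47, and stimulated Th2 cells gave 8.58, 8.91 and 8.93. The Naive groups overlapped, whereas every stimulated Th2 array lay below every resting Th2 array. In BAF180-deficient cells the levels were 8.79, 8.75 and 9.0 in resting Naive, 8.99, 9.75 and 9.26 in stimulated Naive, 9.36, 9.13 and 9.23 in resting Th2 and 8.51, 7.93 and 8.55 in stimulated Th2 cells. The order was the same, with overlap in Naive cells and none in Th2 cells.

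Stimulation lowered Psmb9 in Th2 cells by a log2 difference of -0.67 (SE 0.211, limma adjusted p = 0.0218, 1.59-fold) in WT and -0.91 (SE 0.211, adjusted p = 0.00271, 1.88-fold) in BAF180-deficient cells. In Naive cells the difference was 0.51 (adjusted p = 0.0563) in WT and 0.49 (adjusted p = 0.0715) in BAF180-deficient cells, and neither was called, although with the replicate letter as a block the WT value was (adjusted p = 0.0391). The difference between the 2 stimulations, Th2 minus Naive, was -1.18 in WT (95% interval -1.8 to -0.556, adjusted p = 0.00573) and -1.40 in BAF180-deficient cells (-2.02 to -0.774, adjusted p = 0.00147). It was called without any single array and under the other normalizations, filters and fits tried for it. The call rule of the methods, described below, also asks for a Z-ratio beyond 1.5. The Z-ratio of this difference was -1.25 in WT and -1.48 in BAF180-deficient cells, short of that limit. The WT call in Th2 cells alone was lost without resting replicate B (-0.66, adjusted p = 0.0575), resting replicate C (-0.67, adjusted p = 0.051) or stimulated replicate A (-0.56, adjusted p = 0.105). It was also lost after median centring (-0.41, limma adjusted p = 0.368). Before normalization the Psmb9 mean in resting and stimulated Th2 cells was 713.4 and 644.8 in WT. In BAF180-deficient cells it was 878.1 and 352.7.

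By its normalized level H2-K1 fell on stimulation of Naive cells but not of Th2 cells, so its difference had the opposite sign. Its probe was dim, at 54.8 to 185.1 before normalization, where the array medians were 40.6 to 48.9. Before normalization its mean in resting and stimulated Naive cells was 71.3 and 66.5 in WT, and 67.6 and 73.0 in BAF180-deficient cells. In resting and stimulated Th2 cells that mean was 93.4 and 135.6 in WT, and 98.2 and 91.6 in BAF180-deficient cells. The normalized WT level of H2-K1 was 5.68, 6.11 and 6.53 in resting Naive, 5.03, 5.43 and 5.61 in stimulated Naive, 6.03, 6.27 and 5.94 in resting Th2 and 6.95, 6.23 and 6.42 in stimulated Th2 cells. The BAF180-deficient levels were 6.33, 6.05 and 5.96, then 5.55, 5.68 and 5.35, then 5.80, 5.98 and 5.46, and last 6.36, 6.27 and 5.88 in the same states. In both genotypes all stimulated Naive arrays lay below all resting Naive arrays, and the Th2 groups overlapped.

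Stimulation lowered H2-K1 in Naive cells by a log2 difference of -0.75 (SE 0.22, limma adjusted p = 0.00827) in WT and -0.59 (SE 0.22, adjusted p = 0.0365) in BAF180-deficient cells, 1.68-fold and 1.5-fold. In Th2 cells it differed by 0.45 (adjusted p = 0.144) and 0.42 (adjusted p = 0.182). Th2 minus Naive, the difference between the stimulations was 1.21 in WT (0.558 to 1.85, adjusted p = 0.00644) and 1.01 in BAF180-deficient cells (0.362 to 1.66, adjusted p = 0.0195). The latter was not called after Z-score normalization (0.38, adjusted p = 0.195) or median centring (0.71, adjusted p = 0.0614), nor without resting Naive replicate A (0.90), stimulated Naive replicate C (0.92), resting Th2 replicate C (0.87) or stimulated Th2 replicate A (0.92). The fall in Naive cells lost its call in WT without resting replicate C (-0.54) or stimulated replicate A (-0.59), in BAF180-deficient cells without resting replicate A (-0.48) or B (-0.62) or stimulated replicate A (-0.60) or C (-0.50), and in both genotypes after Z-score normalization (-0.35 and -0.23) or median centring (-0.55 and -0.37).

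By their brightest probes Psmb9 and H2-K1 were the 2 of 8 genes called for this difference between stimulations in each genotype, against 25% of all probes in WT and 26.4% in BAF180-deficient cells. The first B2m probe was called too (0.85 and 0.79, limma adjusted p = 0.0205 and 0.0301), and its brighter neighbour was not (0.32 and 0.88, adjusted p = 0.534 and 0.0569). The comparison was added after the values had been seen. Cell type, stimulus and duration cannot be told apart in it. Class II and myeloid markers, which were high in resting Naive cells alone, were called in it in the same direction as H2-K1, 4 of 4 and 7 of 7 in each genotype, and their part in the H2-K1 value was not tested.

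**Figure D1:**
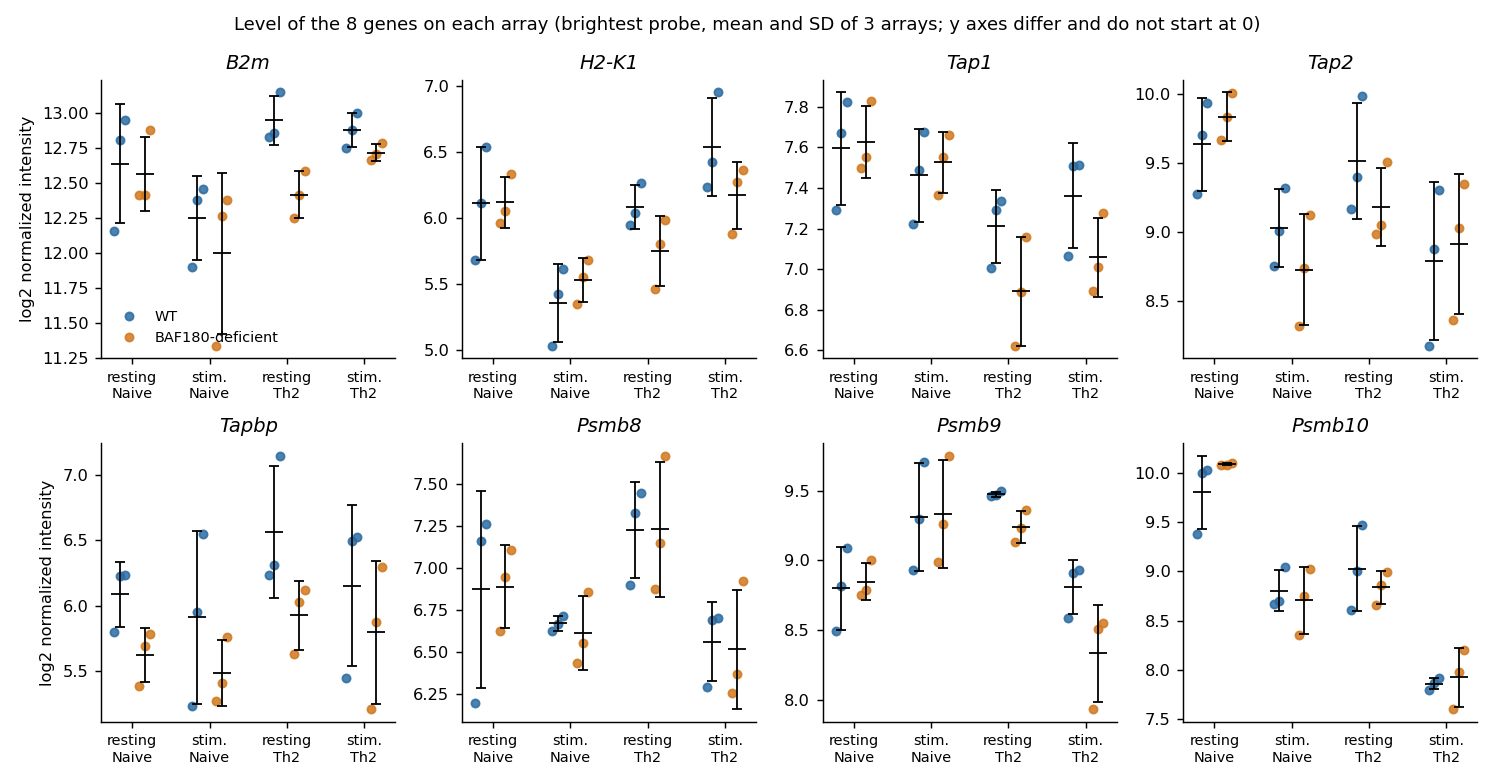
Normalized log2 intensity of the brightest probe of each of the 8 genes on the 24 arrays, by cell state and genotype, with the mean and SD of 3 arrays. Psmb9 is highest in stimulated Naive and resting Th2 cells, whereas H2-K1 is lowest in stimulated Naive cells, and the y axes differ between genes.

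B2m, the light chain, was bright on every array. The WT level was 12.95, 12.81 and 12.16 in resting Naive, 11.90, 12.38 and 12.46 in stimulated Naive, 13.15, 12.83 and 12.86 in resting Th2 and 13.00, 12.88 and 12.75 in stimulated Th2 cells. The BAF180-deficient levels were 12.42, 12.88 and 12.42, then 11.34, 12.27 and 12.38, then 12.42, 12.25 and 12.59, and last 12.67, 12.79 and 12.71. The lowest array was 1 of BAF180-deficient stimulated Naive cells, and the resting and stimulated groups overlapped in WT but not in BAF180-deficient cells, in either cell type. On stimulation of Naive cells the second probe differed by -0.39 (adjusted p = 0.192) in WT and -0.58 (adjusted p = 0.0562) in BAF180-deficient cells, while the first probe was called at -0.67 (limma adjusted p = 0.00574) and -0.60 (adjusted p = 0.0125). After Z-score normalization the second probe was called as well (-1.44, adjusted p = 0.0239, and -1.52, adjusted p = 0.0178). After median centring its WT difference had the other sign (0.20, limma adjusted p = 0.451). Before normalization its mean rose from 3138 to 4908 in WT and from 3415 to 4904 in BAF180-deficient Naive cells. The direction in WT thus depended on the scaling. In Th2 cells the second probe differed by -0.07 and 0.30 and was not called in either genotype. A further B2m probe, at another site, was detected on 0 of 24 arrays and gave no value.

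Psmb10, the β2i subunit of the immunoproteasome, fell by its normalized level on stimulation of both cell types, but its WT Naive call depended on probe and scaling. In WT cells its level was 9.38, 10.0 and 10.03 in resting Naive, 9.05, 8.67 and 8.70 in stimulated Naive, 8.61, 9.01 and 9.47 in resting Th2 and 7.80, 7.87 and 7.92 in stimulated Th2 cells. The BAF180-deficient levels were 10.1, 10.08 and 10.08, then 9.03, 8.75 and 8.35, then 8.87, 8.66 and 8.99, and last 8.20, 7.60 and 7.98. Stimulated arrays lay below resting arrays without overlap in both cell types and genotypes. The log2 difference in Naive cells was -0.998 (SE 0.215, limma adjusted p = 0.000721, 2.0-fold) in WT and -1.38 (adjusted p = 2.6e-05, 2.6-fold) in BAF180-deficient cells. In Th2 cells it was -1.16 (adjusted p = 0.000295, 2.24-fold) and -0.91 (adjusted p = 0.0031, 1.88-fold). A second Psmb10 probe correlated with the first at 0.851 over 24 arrays and was called in Th2 cells (-1.05 and -1.18) and in BAF180-deficient Naive cells (-0.76), but not in WT Naive cells (-0.27, adjusted p = 0.389). Median centring ended the call in WT Naive cells (-0.28, adjusted p = 0.383). Before normalization the brighter probe's mean was 482.9 in resting and 506.2 in stimulated WT Naive cells, and 602.1 and 512.6 in BAF180-deficient ones. The second probe's means there were 304.6 and 474.9, and 408.8 and 495. In Th2 cells the brighter probe went from 523.2 to 332.4 in WT and from 683.6 to 263.2 in BAF180-deficient cells.

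Psmb8, the β5i subunit, stood near its resting level in stimulated Naive cells and lower in stimulated Th2 cells. The WT level was 6.90, 7.33 and 7.45 in resting and 6.69, 6.70 and 6.29 in stimulated Th2 cells, without overlap. The BAF180-deficient level was 7.67, 6.87 and 7.15 in resting and 6.92, 6.25 and 6.37 in stimulated Th2 cells, with overlap. The log2 difference was -0.67 (adjusted p = 0.0582) in WT and -0.72 (SE 0.254, limma adjusted p = 0.0429, 1.64-fold) in BAF180-deficient cells. The call was lost without resting replicate A (-0.50) or C (-0.76) or stimulated replicate B (-0.59) or C (-0.64). In Naive cells, where levels ran from 6.2 to 7.26 in all 12 arrays, the differences were -0.20 and -0.28 and were not called. The difference between the stimulations, Th2 minus Naive, was -0.46 in WT and -0.44 in BAF180-deficient cells. It was not called in either (limma adjusted p = 0.393 and 0.401).

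The constitutive catalytic subunits, which the immunoproteasome subunits replace, rose on stimulation of Naive cells under each of the 3 scalings tried. On stimulation of Naive cells Psmb5 rose by 2.31 in WT and 1.84 in BAF180-deficient cells (limma adjusted p = 1.83e-05 and 0.000233), Psmb6 by 0.999 and 0.85, and Psmb7 by 1.64 and 1.72, all called. Psmb5 was detected on only 1 of 3 WT resting Naive arrays, so its WT difference is set against a level mostly at background. On stimulation of Th2 cells Psmb6 rose by 0.64 and 0.60 (adjusted p = 0.0244 and 0.0347), and Psmb7 rose by 0.61 in WT (adjusted p = 0.0228) but was not called in BAF180-deficient cells (0.34). The Psmb6 calls in Th2 cells were lost after Z-score normalization (0.57, WT) or median centring (0.47, BAF180-deficient), and Psmb5 differed by 0.43 and 0.53 there and was not called. Each immunoproteasome gene thus had a lower difference than its constitutive counterpart (Psmb8 with Psmb5, Psmb9 with Psmb6, Psmb10 with Psmb7) in all 4 stimulation comparisons, although these gaps were not tested.

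**Figure D2:**
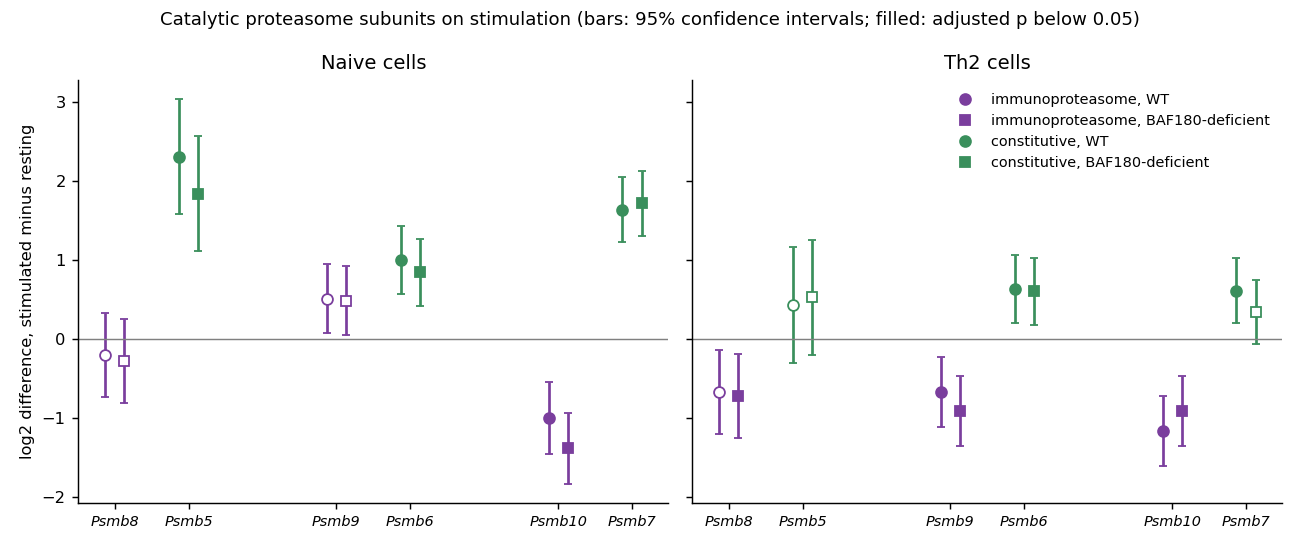
Log2 difference on stimulation (stimulated minus resting) of the immunoproteasome subunits and their constitutive counterparts in Naive and Th2 cells of each genotype, with 95% confidence intervals and filled symbols at an adjusted p below 0.05. Psmb5, Psmb6 and Psmb7 lie above 0 in every comparison, and Psmb10 lies below 0 in every comparison.

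Among transport and loading genes, Tap2, which encodes 1 of the 2 chains of the TAP transporter, fell by its normalized level on stimulation of BAF180-deficient Naive cells. Its level went from 9.83, 10.01 and 9.67 at rest to 8.74, 9.12 and 8.32, without overlap, a log2 difference of -1.11 (SE 0.295, limma adjusted p = 0.0044, 2.16-fold) that was not called after median centring (-0.45, adjusted p = 0.143). In WT Naive cells it went from 9.27, 9.70 and 9.94 to 9.01, 9.32 and 8.76, with overlap, a difference of -0.61 (adjusted p = 0.103). In Th2 cells the difference was -0.73 in WT (adjusted p = 0.0751) and -0.27 in BAF180-deficient cells. With the replicate letter as a block, the WT differences were called in Naive (adjusted p = 0.0467) and in Th2 cells (adjusted p = 0.0283). The Naive response of Tap2 differed between genotypes by -0.50 (95% interval -1.37 to 0.37), which was not called. Before normalization the Tap2 mean in resting and stimulated Naive cells was 439.4 and 569.9 in WT. In BAF180-deficient Naive cells it was 512.1 and 532.1.

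Tap1, the other TAP chain, did not pass the test on stimulation of either cell type. The differences were -0.13 and -0.10 in Naive cells and 0.15 in WT Th2 cells. Psmb9 and Tap1 start 225 bases apart on opposite strands, as shown above. The difference between their responses was not tested. Tapbp encodes tapasin, the bridge between TAP and the heavy chain. Its brighter probe was not called on stimulation, with differences of -0.18 and -0.14 in Naive and -0.41 and -0.13 in Th2 cells. A second Tapbp probe, which shared runs of 15 or more bases with 5 probes of other genes, was called in WT Naive cells (-0.73, limma adjusted p = 0.0263), and the 2 probes correlated at only 0.392 over the 24 arrays.

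**Figure D3:**
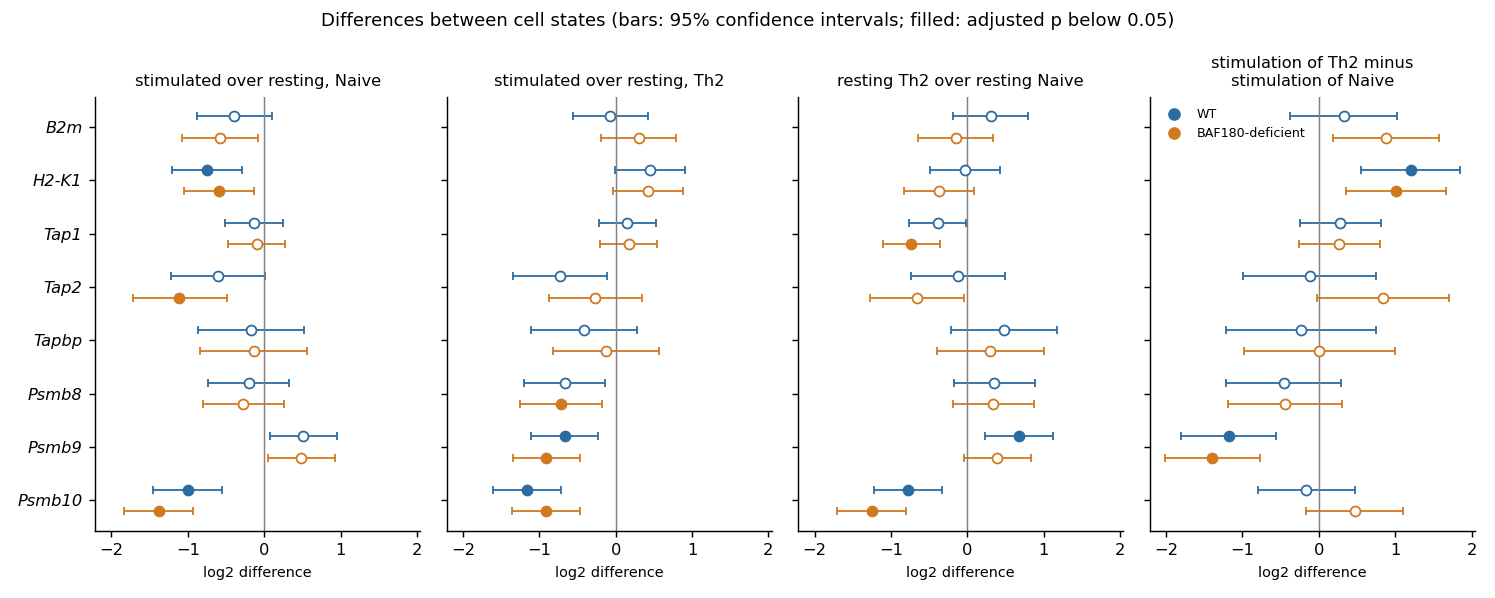
Log2 differences of the 8 genes between cell states in WT and BAF180-deficient cells (brightest probe, 95% confidence intervals, filled symbols at an adjusted p below 0.05). Psmb10 is the only gene called in each genotype for all 3 simple comparisons, and H2-K1 and Psmb9 lie on opposite sides of 0 in Naive and in Th2 stimulation.

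Of the 8 genes, 2 were called lower and 0 higher on stimulation of WT Naive cells, and 3 lower and 0 higher in BAF180-deficient cells, against 43.6% and 41.6% of all probes called in either direction. On stimulation of Th2 cells 2 were called lower in WT and 3 in BAF180-deficient cells, with 0 higher, against 27.3% and 25.8% of all probes. With 8 genes, these counts are close to the background shares. With the replicate letter as a block the count in WT Naive cells was 4, with Tap2 and Psmb9 added. The median difference of the 8 genes was -0.298 and -0.426 in Naive cells and -0.538 and -0.198 in Th2 cells, where the median of all probes was between -0.00425 and 0.0247. In Naive cells 7 of 8 genes were lower in each genotype, but only 2 of 8 (WT) and 5 of 8 (BAF180-deficient) after median centring, which also moved the median of all probes by -0.17 and -0.166, and 4 of 8 and 5 of 8 after Z-score normalization.

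**Figure D4:**
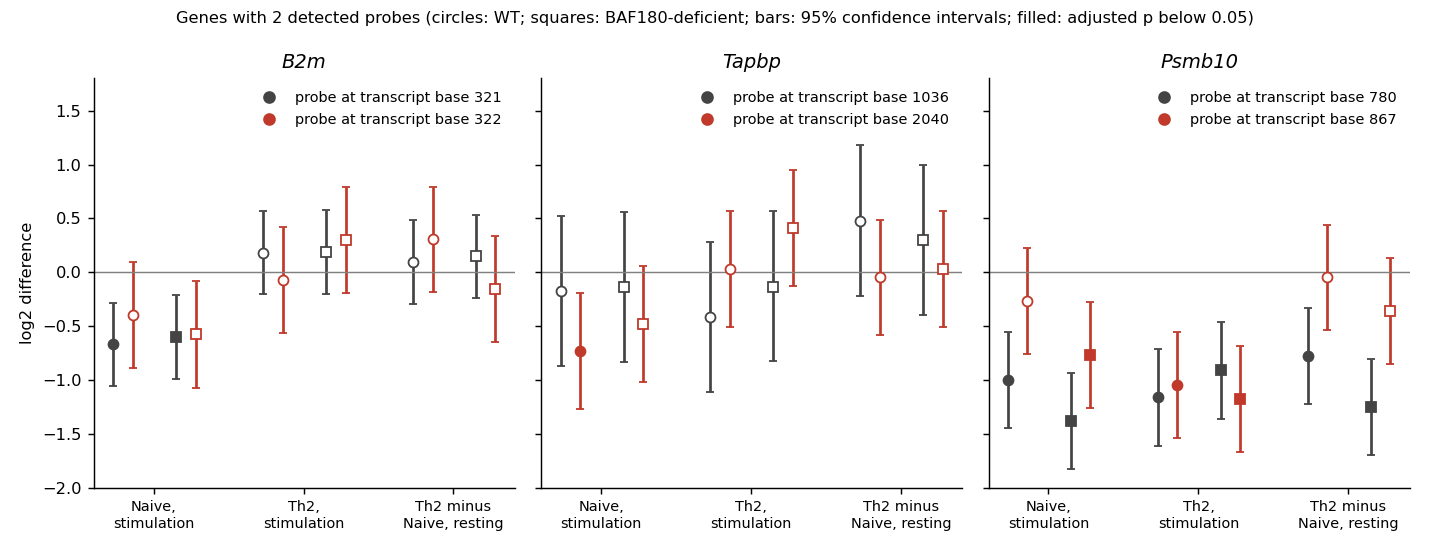
Log2 differences between states for the genes with 2 detected probes, B2m, Tapbp and Psmb10, in WT (circles) and BAF180-deficient cells (squares), with 95% confidence intervals and filled symbols at an adjusted p below 0.05. Both Psmb10 probes lie below 0 on Th2 stimulation, whereas in the resting comparison only the brighter one was called.

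Resting Th2 cells were compared with resting Naive cells to describe differentiation. In WT cells Psmb9 was higher in Th2 cells by 0.68 (limma adjusted p = 0.017, 1.6-fold) and its groups did not overlap, while Psmb10 was lower by a difference of -0.78 (adjusted p = 0.00794) with overlapping groups. In BAF180-deficient cells Psmb10 differed by -1.25 (adjusted p = 0.000128, 2.38-fold) and Tap1 by -0.74 (SE 0.18, adjusted p = 0.00315, 1.67-fold). Tap1 had been 7.5, 7.83 and 7.55 in BAF180-deficient resting Naive cells and was 7.16, 6.89 and 6.62 in resting Th2 cells, all of them lower. The Tap1 call was lost after Z-score normalization (-0.31) and median centring (-0.25), and Tap2 (-0.66, adjusted p = 0.0912) was called with the replicate letter as a block (adjusted p = 0.0389). The other Psmb10 probe was not called in WT (-0.05) or BAF180-deficient cells (-0.36, adjusted p = 0.251), and in WT the Psmb9 call was lost without resting Naive replicate A (0.52, adjusted p = 0.0965) and the Psmb10 call without resting Th2 replicate A (-0.57, adjusted p = 0.0641). The 2 genes called in each genotype compare with 34.4% and 34.7% of all probes.

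BAF180 loss changed none of the 8 genes past the 4 criteria of the methods (Z-ratio beyond 1.5, false discovery rate below 0.3, p below 0.05 and a mean signal above 0). The counts were 0 of 8 in resting Naive, stimulated Naive, resting Th2 and stimulated Th2 cells, against 0.681%, 0.112%, 0.0842% and 0.0913% of all probes. The lowest limma adjusted p was 0.932 by the brightest probes, and 0.872 over all their tested probes (the second Tapbp probe, resting Naive cells). An unadjusted limma p below 0.05 was reached by 1 gene at rest and by 1 gene after stimulation, both in Th2 cells. Few probes of the whole table were called in these comparisons, so a count of 0 does not show that the genes did not differ.

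These 2 genes were B2m and Psmb9. In resting Th2 cells B2m was 12.42, 12.25 and 12.59 without BAF180, below each of the WT values of 13.15, 12.83 and 12.86 (log2 difference -0.53, 95% interval -1.02 to -0.0348, unadjusted limma p = 0.0371, exact permutation p = 0.1). The other detected B2m probe, which shares 49 bases with it, differed by -0.24 (-0.624 to 0.15, unadjusted limma p = 0.217, exact permutation p = 0.1), also without overlap. Before normalization the genotypes overlapped in resting Th2 cells for both B2m probes. The means without BAF180 and in WT were then 7649 and 7923 for the brighter probe, and 8344 and 7319 for the other. In stimulated Th2 cells Psmb9 was 8.51, 7.93 and 8.55, below each of the WT values of 8.58, 8.91 and 8.93 (-0.48, -0.916 to -0.0361, unadjusted limma p = 0.0353, exact permutation p = 0.1). Their adjusted p was 1 in each case.

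Groups without overlap between genotypes were found for B2m, Tapbp and Psmb9 in resting Th2 cells, for Psmb9 in stimulated Th2 cells, and for Tapbp and Psmb10 in resting Naive cells, where the share of all probes without overlap was 10.1%, 7.31% and 7.99%. In resting Th2 cells 7 of 8 genes were lower without BAF180 (5 of 8 after median centring), with a median difference of -0.327 against 0.000562 over all probes. In stimulated Th2 cells 6 of 8 were lower (median -0.228), and in resting Naive cells 6 of 8 were higher (median 0.024). Tapbp was lower in all 4 states by its brighter probe (-0.46, -0.43, -0.64 and -0.36 in the order above), while its second probe differed by -0.42, -0.17, -0.34 and 0.04. Both Tapbp probes were dim, at 50.4 to 134.6 and 56.9 to 153.2 before normalization, where the array medians were 40.6 to 48.9.

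The arrays were also set against each other by replicate letter, WT with BAF180-deficient, a count added after the values had been seen. The study does not state which letters form a pair. In resting Th2 cells 5 of 8 genes (B2m, H2-K1, Tap1, Tapbp and Psmb9) were lower without BAF180 in all 3 pairs, where 13.2% of all probes were, and in stimulated Th2 cells 4 of 8 (B2m, Tap1, Tapbp and Psmb9), where 13.3% of all probes were. The second Tapbp probe was lower in 2 of 3 resting and 1 of 3 stimulated pairs. After median centring the mean Psmb9 difference in resting Th2 cells was 0.035. After Z-score normalization that of B2m in stimulated Th2 cells was 0.17. Tap1 differed by -0.13, -0.45 and -0.38 in the resting and by -0.24, -0.62 and -0.05 in the stimulated pairs. Its mean differences of -0.32 and -0.30 had an unadjusted limma p of 0.0688 and 0.0844 with the replicate letter as a block. In resting Naive cells Tapbp was lower and Psmb10 higher in all 3 pairs, and in stimulated Naive cells B2m and Tap2 were lower. A two-sided exact sign-flip test of 3 pairs cannot go below a p of 0.25. With the block none of the 8 genes was called in any state. The unadjusted limma p was then below 0.05 for B2m (0.0399) and Tapbp (0.0279) in resting and for Psmb9 (0.025) in stimulated Th2 cells, each with an adjusted p of 1.

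**Figure D5:**
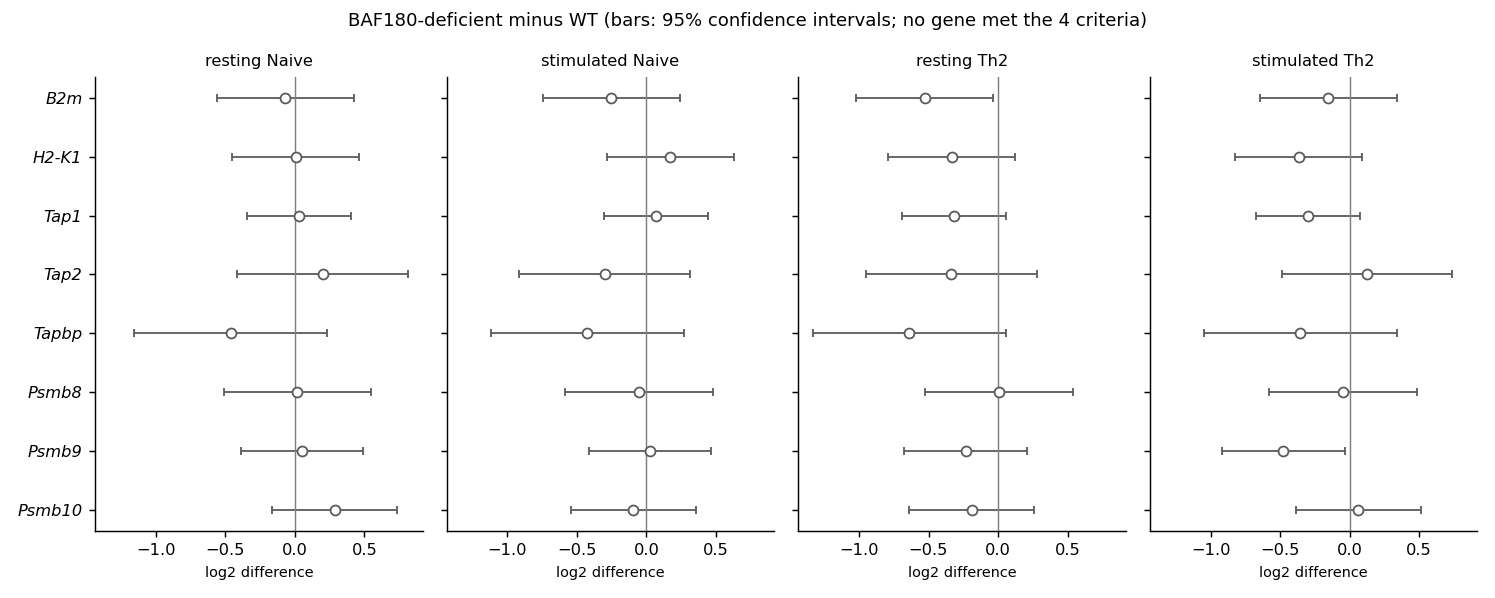
Log2 difference without BAF180 (BAF180-deficient minus WT) of the 8 genes in each of the 4 states, with 95% confidence intervals. No gene met the 4 criteria of the methods, and the intervals of B2m in resting Th2 and Psmb9 in stimulated Th2 cells lie below 0, although that of the other B2m probe, not plotted, spans 0 (-0.624 to 0.15).

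The effect of stimulation was also compared between genotypes. None of the 8 genes was called in Naive or Th2 cells, against 0.00702% and 0% of all probes, and none for the resting Th2 against resting Naive difference, against 0.00702%. All adjusted p values of the genes were 1, and no gene had an unadjusted limma p below 0.05. In the last of these comparisons the resting Th2 minus resting Naive difference was lower without BAF180 for 8 of 8 genes. The median was -0.346 against 0.0062 over all probes. The levels themselves were not all lower, since 6 of 8 genes were higher without BAF180 in resting Naive cells. The intervals were wide: the difference for Psmb9 in Th2 stimulation lay between -0.865 and 0.38.

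Other genes of the pathway were described from lists chosen with earlier results known. Of 9 genes for peptide loading, trimming and proteasome activation, 8 were detected. On stimulation of Naive cells 3 were called higher in WT and 4 in BAF180-deficient cells, and 0 lower, where 23.6% and 22.3% of all probes were called higher. They included Pomp, a proteasome assembly factor (1.09 and 0.98), Psme3, an activator subunit (1.05 and 1.09), and Tapbpl, a tapasin relative that edits peptides (1.03 and 0.90). The interferon-inducible activator subunits Psme1 and Psme2 were not called in any state comparison. In stimulated Th2 cells Psme3 was called again (0.94 and 1.11), and Pdia3, a chaperone of the loading complex, was higher in resting Th2 than in resting Naive cells (0.77 and 0.78) but was not called after Z-score normalization (0.51 and 0.30). After median centring 7 of 8 were called higher in Naive cells of each genotype.

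Other class I and class I-like heavy chains included 11 detected genes of 20. On stimulation of Naive cells 6 of 11 were called lower in each genotype and 0 higher, where 20% and 19.3% of all probes were called lower. The medians were -1.29 and -0.828, and 4 to 6 were called lower under the other scalings. Class II and myeloid markers were also lower in stimulated than in resting Naive cells, and their part in these falls was not tested. The largest falls were those of H2-M2 (-3.84 and -3.99, detected on 2 of 3 WT stimulated arrays), Cd1d1, which presents lipids (-2.76 and -2.43), H2-M3, which presents formylated peptides (-1.76 and -1.66), and H2-Q7 (-1.48 and -1.52). In Th2 cells H2-M3 was called lower in WT (-0.75, but not after Z-score normalization or median centring), and H2-Q7 and H2-Q8 were called higher in BAF180-deficient cells (1.03 and 0.92). These H2 genes are close relatives, and how far a probe reads more than 1 of them was not tested. H2-M2 and Cd1d1 were also lower in resting Th2 than in resting Naive cells (-2.14 and -2.30 for Cd1d1), 2 states between which class II and myeloid markers also differed. H2-M2 was detected on 0 of 3 resting Th2 arrays of each genotype, and it was at least 18.7-fold (WT) and 29.0-fold (BAF180-deficient) lower there, against the lowest signal detected on each array.

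Of 13 detected regulators of the class I genes, 4 were called higher on stimulation of Th2 cells in each genotype, and 1 was called lower in WT and 2 in BAF180-deficient cells, where 27.3% and 25.8% of all probes were called in either direction. Irf8, an interferon regulatory factor detected on 2 of 3 WT resting Th2 arrays, rose by 2.86 and 2.63, and the NF-κB subunits Nfkb1 and Rela rose by 1.68 and 1.23 and by 1.50 and 1.60. Irf2, a repressor at interferon response elements, fell by 0.85 and 0.72, the first of which was not called after median centring (-0.60). At rest, Th2 cells had less Nlrc5, the class I transactivator (-1.47 and -1.78), Irf1 (-1.25 and -1.29) and Irf8 (-1.55 and -1.49) than Naive cells. In that comparison 4 of 13 were called lower in each genotype, and 1 in WT and 2 in BAF180-deficient cells were called higher. Of all probes 34.4% and 34.7% were called in either direction. Class II and myeloid markers were also higher in resting Naive cells, and their part in these values was not tested.

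Of 10 detected genes of interferon-γ, interferon receptors and their signal transducers, 2 were called higher on stimulation of Th2 cells in each genotype, and 1 was called lower in WT and 2 in BAF180-deficient cells, a share of the list near that of all probes (27.3% and 25.8%). Ifng itself was detected on 1 of 3 WT and 0 of 3 BAF180-deficient resting Th2 arrays. On stimulation of Th2 cells it rose by 6.05 in WT and at least 73.7-fold in BAF180-deficient cells, and on stimulation of Naive cells by 2.34 and 3.34, while the differences of its receptor chain Ifngr1 were -2.79 and -2.78 in Th2 and -3.14 and -2.84 in Naive cells, all called. Jak2, a kinase bound to that receptor, rose in Th2 cells by 2.6 and 2.79. Of 15 detected interferon-stimulated genes, 3 were called higher and 5 lower on stimulation of Naive cells in each genotype, where 43.6% and 41.6% of all probes were called. Gbp2 was among the higher ones (2.86 and 2.50) and Ifit3 among the lower ones (-3.26 and -2.46). On stimulation of Th2 cells Gbp2 differed by 0.12 and -0.29 and was not called.

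The 8 genes did not share 1 pattern over the 8 group means. The Pearson r of each gene with the mean of the other 7 ran from 0.03 for Psmb9 to 0.857 for Tap2, and the closest pairs were Tap2 with Psmb10 (0.881) and B2m with H2-K1 (0.859). The mean of the 8 genes, each centred on its own average, was highest in WT resting Th2 cells (0.291) and lowest in BAF180-deficient stimulated Th2 cells (-0.286). Among 4732 candidate genes, those whose group means were most like that mean were Dedd2 (r of 0.975), Fam160a2 (0.958) and Adcy7 (0.952). These are correlations over 8 points from the same 24 arrays and are given as a description.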

How the data were processed

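RNA of 24 samples, 3 arrays for each of 8 groups, was hybridised to Illumina MouseRef-8 v2 arrays, and the number of arrays limits the precision. The deposited table held non-normalized bead intensities made by the authors with GenomeStudio 1.6.0 per the labels, with no background correction stated. The deposited detection p-values of each probe stood beside them. Probe coordinates in the table have no stated build and were not used. The background was estimated from the detection p (normexp, offset 16), and log2 intensities were quantile normalized and fitted with limma 3.58.1 in R 4.3.3 as 8 group means, with 16 residual degrees of freedom. Probes that reached a detection p no higher than 0.02 on 1 or more of the arrays were tested, and a gene was described by its brightest probe, with its other probes given too. Genotype comparisons used the 4 criteria of the methods with p and FDR from limma, and all others an adjusted p below 0.05. The script was tested on simulated data.

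The genes named were the members with all their probes and, for each list of related genes, at most 4 genes per comparison, those called with the largest difference first. Members and lists were chosen with earlier results of these data known. Samples were grouped by their labels, and per the study the RNA came from 3 mouse pairs, 1 mouse of each genotype in a pair, without a statement of which letters form a pair. Replicate letters deviated together between genotypes (r of 0.301 for A, 0.136 for B and 0.516 for C over the detected probes), and letters were treated as pairing the samples in a fit with the replicate as a block. Alternatives were Z-score normalization as in the methods (returned to a log2 scale), median centring, an offset of 50, other detection filters, the mean of a gene's probes, fewer arrays in the fit, normalization within a cell state, the other call rule, and leaving out each array. Promoter sequences were matched to RefSeq by symbol, and figures were drawn with matplotlib 3.10.9.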

Additional observations from a re-analysis of the deposited data

Results flagged for a closer look

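The response to stimulation differed between Th2 and Naive cells for 2 of 8 genes in each genotype. Of all probes, 25% in WT and 26.4% in BAF180-deficient cells were called, so the share of the genes is near the background. For Psmb9 the log2 difference between the stimulations, Th2 minus Naive, was -1.18 in WT and -1.40 in BAF180-deficient cells (limma adjusted p = 0.00573 and 0.00147). For H2-K1 it was 1.21 and 1.01 (adjusted p = 0.00644 and 0.0195), from a dim probe (54.8 to 185.1 before normalization). The BAF180-deficient H2-K1 call was lost after Z-score normalization (0.38, limma adjusted p = 0.195) or median centring (0.71, adjusted p = 0.0614), and without some single arrays. The test of this difference was chosen after the levels had been seen. The stimuli and their durations differed between the cell types, so these cannot be told apart.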

How the results depend on the processing

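The precision was limited by 3 arrays per group. With the 4 criteria in place of the adjusted p, the count of genes called was 0 for Naive stimulation in each genotype, 1 (WT) and 0 (BAF180-deficient) for Th2 stimulation, and 0 (WT) and 1 (BAF180-deficient) for resting Th2 against resting Naive cells. Z-score normalization gave 4 in the last of these. Median centring gave 1 for WT Naive and 1 for WT Th2 stimulation. It called Psmb9 higher in stimulated Naive cells (1.17, adjusted p = 0.0016, and 1.13, adjusted p = 0.00222) and called 8170 of all probes against 4940 for BAF180-deficient resting Th2 against Naive cells. The replicate block gave 4 for WT Naive stimulation and changed no other count past 1.5 times. The mean of a gene's probes gave 1 for resting WT Th2 against Naive cells, and fitting only the arrays compared gave 1 for that comparison and 1 for WT Naive stimulation. The cause of these changes was not tested. Without single arrays the counts ran from 2 to 3 (WT) and 2 to 4 (BAF180-deficient) in Naive stimulation, 1 to 3 and 2 to 3 in Th2 stimulation, 1 to 2 and 2 to 2 in resting Th2 against Naive, and 2 to 2 and 1 to 3 in the difference between stimulations. Genotype counts were 0 under every alternative. No value that changed sign had been called. The values that changed sign with Z-score normalization were for BAF180 loss in resting Naive H2-K1 -0.022, for BAF180 loss in stimulated Th2 B2m 0.17, for WT Naive stimulation Tap1 0.14, Tapbp 0.036 and Psmb8 0.023, for BAF180-deficient Naive stimulation Tap1 0.14 and Tapbp 0.0054, for BAF180-deficient Th2 stimulation Tap1 -0.025, for WT Th2 against Naive B2m -0.62 and H2-K1 0.15, for BAF180-deficient Th2 against Naive H2-K1 0.021. The values that changed sign with median centring were for BAF180 loss in resting Naive B2m 0.099 and H2-K1 -0.0086, for BAF180 loss in stimulated Naive Psmb10 0.0033, for BAF180 loss in resting Th2 Psmb9 0.035 and Psmb10 0.089, for BAF180 loss in stimulated Th2 Tap2 -0.022 and Psmb10 -0.074, for WT Naive stimulation B2m 0.20, Tap1 0.42, Tap2 0.092, Tapbp 0.017 and Psmb8 0.17, for BAF180-deficient Naive stimulation Tap1 0.44 and Psmb8 0.12, for WT Th2 stimulation B2m 0.34, for WT Th2 against Naive H2-K1 0.11, Tap1 0.0046 and Tap2 0.32, for BAF180-deficient Th2 against Naive B2m 0.33. Further sign changes were, with offset of 50 H2-K1 -0.0032 (BAF180 loss in resting Naive), with mean of the probes of a gene Psmb10 -0.00456 (BAF180 loss in stimulated Th2), B2m 0.057 (WT Th2 stimulation) and Tapbp 0.14 (BAF180-deficient Th2 stimulation), with normalization within the cell state H2-K1 -0.0025 (BAF180 loss in resting Naive). Leaving out single arrays gave ranges across 0 of B2m -0.31 to 0.086, H2-K1 -0.21 to 0.22, Tap1 -0.12 to 0.15, Psmb8 -0.32 to 0.21 and Psmb9 -0.10 to 0.19 for BAF180 loss in resting Naive, H2-K1 -0.24 to 0.18 and Tap2 -0.35 to 0.053 for WT Th2 against Naive, Tap1 -0.17 to 0.000943 for BAF180-deficient Naive stimulation, B2m -0.24 to 5e-04 for BAF180-deficient Th2 against Naive, Psmb9 -0.18 to 0.22, Psmb10 -0.26 to 0.083, Tap1 -0.055 to 0.17, B2m -0.45 to 0.077 and Psmb8 -0.18 to 0.036 for BAF180 loss in stimulated Naive, Tapbp -0.49 to 0.16 for WT Naive stimulation, Psmb8 -0.21 to 0.18 and Psmb10 -0.40 to 0.0301 for BAF180 loss in resting Th2, B2m -0.13 to 0.032 for WT Th2 stimulation, Psmb8 -0.25 to 0.085, Tap2 -0.18 to 0.40 and Psmb10 -0.073 to 0.22 for BAF180 loss in stimulated Th2, Tap2 -0.48 to 0.012 and Tapbp -0.38 to 0.16 for BAF180-deficient Th2 stimulation.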

Other observations

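Interferon-stimulated genes were lower without BAF180 in Th2 cells by direction, more than by calls. In stimulated Th2 cells 15 of 15 genes of the list were lower (median -0.42), and in resting Th2 cells 12 of 15 (median -0.657). The medians over all probes were 0.00125 and 0.000562, and 50.4% and 50.1% of all probes were higher. The 15 genes were those detected on 1 or more arrays of any state. Each stimulated Th2 array detected only 8 to 12 of the 15. Mx1 and Cmpk2 were detected on 0 stimulated Th2 arrays of either genotype, so their direction there compares background with background. Irf7, Oasl2 and Rsad2 were each detected on 0 BAF180-deficient and 2 WT stimulated Th2 arrays. In each state 1 gene met the 4 criteria, Eif2ak2 (-1.39, limma adjusted p = 0.229) in stimulated and Cmpk2 (-1.08, adjusted p = 0.194, detected on 2 of 3 BAF180-deficient arrays) in resting Th2 cells. In Naive cells 8 of 15 were higher at rest and 7 of 15 after stimulation.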
